A study of Mus musculus with 10 samples.

Results

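The genes described here encode the subunits of the mitochondrial respiratory chain and of ATP synthase that the nucleus carries. They were taken by symbol, as every row of the count files whose name starts with Nduf, Uqcr, Atp5, Cox4i, Cox5, Cox6, Cox7 or Cox8, plus Sdha, Sdhb, Sdhc, Sdhd, Cyc1 and Cycs. The rule gave 94 of 23420 gene rows, and 87 of these had enough reads to be tested. They fall into 36 subunits of complex I with 7 Ndufaf assembly factors, 4 genes of complex II and 9 of complex III. The rest are cytochrome c (Cycs), 20 genes of complex IV, 15 of ATP synthase (complex V), and Atp5s and Atp5sl. Atp5s and Atp5sl carry ATP synthase names but were counted apart from its subunits. The annotation used here lists Atp5sl under the newer symbol Dmac2, so its older name does not place it in ATP synthase. Ndufa4 and Ndufa4l2 carry complex I names but were counted with complex IV, where the Ndufa4 protein is found. The subunits encoded in mitochondrial DNA and Ndufb1 were not analysed here.

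Liver RNA of male C57BL/6 mice aged 4 months was sequenced (RNA-seq). The fed group (5 libraries) had standard chow, and the starved group (5 libraries) went without food for 48 h with water at will. No transgene or drug was used, and the labels speak of pairs of mice without saying what pairs them. The series concerns histone lysine β-hydroxybutyrylation, a mark made from the ketone body β-hydroxybutyrate.

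The respiratory chain is a row of protein complexes in the inner mitochondrial membrane. Complex I takes electrons from NADH and complex II from succinate, coenzyme Q carries them to complex III, cytochrome c carries them on to complex IV, and complex IV hands them to oxygen. Complexes I, III and IV pump protons as they do so, and ATP synthase lets the protons flow back to make ATP. In the liver of a fasting animal, this chain oxidises the NADH and reduced flavins that come from burning fatty acids, and its ATP pays for making glucose.

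Reads assigned to genes came to 23.0 to 29.9 M in fed and 18.2 to 28.1 M in starved libraries. Levels are given as CPM, reads per M gene reads of the library after scaling with TMM, a trimmed mean of log ratios between libraries. Over all genes, libraries 2 and 4 of the starved group were far from its other 3 libraries (90.1 and 63.9 on the first principal component against 17.7 to 18.9), so counts are also given without them. Markers were called at an adjusted p under 0.05 (edgeR's quasi-likelihood test), by which 18.6% of all tested genes rose and 20% fell. Hepatocyte markers were abundant in every library (summed 118436 to 191423 CPM). Of these 8 markers 1 rose (12.5%) and 2 fell (25%), near the shares of all genes. Of the markers of other liver cells, 6 of 7 Kupffer cell and macrophage markers fell (summed 355 to 582 CPM fed and 144 to 304 starved) and all 3 tested neutrophil markers rose (summed 1.82 to 3.65 and 2.67 to 22.2 CPM). Of the rest, 1 of 6 endothelial markers rose and 3 fell (209 to 252 and 178 to 226 CPM), 1 of 6 stellate markers rose (433 to 500.2 and 444 to 654 CPM), and 1 of 5 cholangiocyte (46.3 to 57.2 and 15 to 40.6 CPM) and 1 of 5 tested lymphocyte markers fell (2.85 to 5.09 and 0.909 to 3.93 CPM). The 1 tested erythroid marker fell, and the other 4 had 0 reads. No skeletal muscle marker had enough reads to be tested (summed at most 0.295 CPM in any library), and the 1 tested brown fat marker was not called. The brown fat marker Ucp1, too low to be tested, was at 2.25 CPM in fed library 1 and 0.545 CPM in starved library 1. It was at most 0.199 CPM in any other library. Cidea, also untested, was at 0.211 and 0.272 CPM in the same libraries and at most 0.0994 CPM elsewhere. The part of these cell types in the results below was not tested, and in bulk liver fewer cells of a type and less RNA per cell cannot be told apart.

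Genes of the respiratory chain and ATP synthase were modestly higher in starved liver. Of the 87 tested genes, 28 rose and 1 fell at an adjusted p under 0.05 (edgeR's quasi-likelihood test). Over all 12796 tested genes, 18.6% rose and 20% fell, so the genes described here were called higher in a larger share (32.2%) and lower in a smaller share (1.15%) than genes at large. The median log2 fold change of the 87 was 0.24, beside 0.0035 over all tested genes, and 75 of the 87 had a positive value. The rises were small, between 0.31 and 1.03 on the log2 scale, and only Cycs, Ndufaf4 and Atp5s rose by 1.5-fold or more. In 20 of the 87 genes (23%) all 5 starved libraries lay above all 5 fed ones, which held for 13.2% of all tested genes. In none of the 87 did all starved libraries lie below all fed ones, against 16.7% of all tested genes.

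Without starved libraries 2 and 4, 47 of the 87 (54%) rose, among them all 28, and 1 fell (20.2% and 20.7% over all genes), with a median of 0.34. Scaling mattered as well. With library totals alone in place of TMM the median of all genes moved to −0.15 and 5 of the 87 rose (5.75%) and 3 fell (3.45%), beside 11.6% and 27.3% over all genes. The median of the 87 was then 0.086, still 0.24 above that of all genes, and 58 of the 87 had a positive value. The 5 that rose under both scalings were Cycs, Ndufv1, Uqcrfs1, Ndufaf4 and Atp5s. Directions given below are therefore relative to the TMM scale, that is, to the bulk of expressed genes. With smooth trends on exon length and GC content removed, 47 rose (54%) and 3 fell (3.45%), beside 24.7% and 18% over all genes. The median of all genes was then 0.075 and that of the 87 lay 0.21 above it. Without fed library 3, 16 rose, a share (18.4%) near the 15.1% of all genes, and 1 fell, beside 17.2%.

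Summed over all subunits of a complex, the starved mean was 1.16 times the fed mean for complex I, 1.15 for complex II, 1.25 for complex III, 1.26 for complex IV and 1.26 for complex V, against 1.91 for cytochrome c. The sum over all 94 rows went from 15542 ± 1105 to 19166 ± 2308 CPM (SD, n = 5). The groups overlapped in this sum, with fed library 1 (17151 CPM) above starved library 5 (16756 CPM). They also overlapped in the sums of complexes I, II, III and IV, but not in those of complex V and cytochrome c. As an unscaled share of gene reads, the 94 genes took 1.43% to 1.89% of fed and 1.51% to 2.12% of starved libraries, and these ranges overlapped too.

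**Figure D1:**
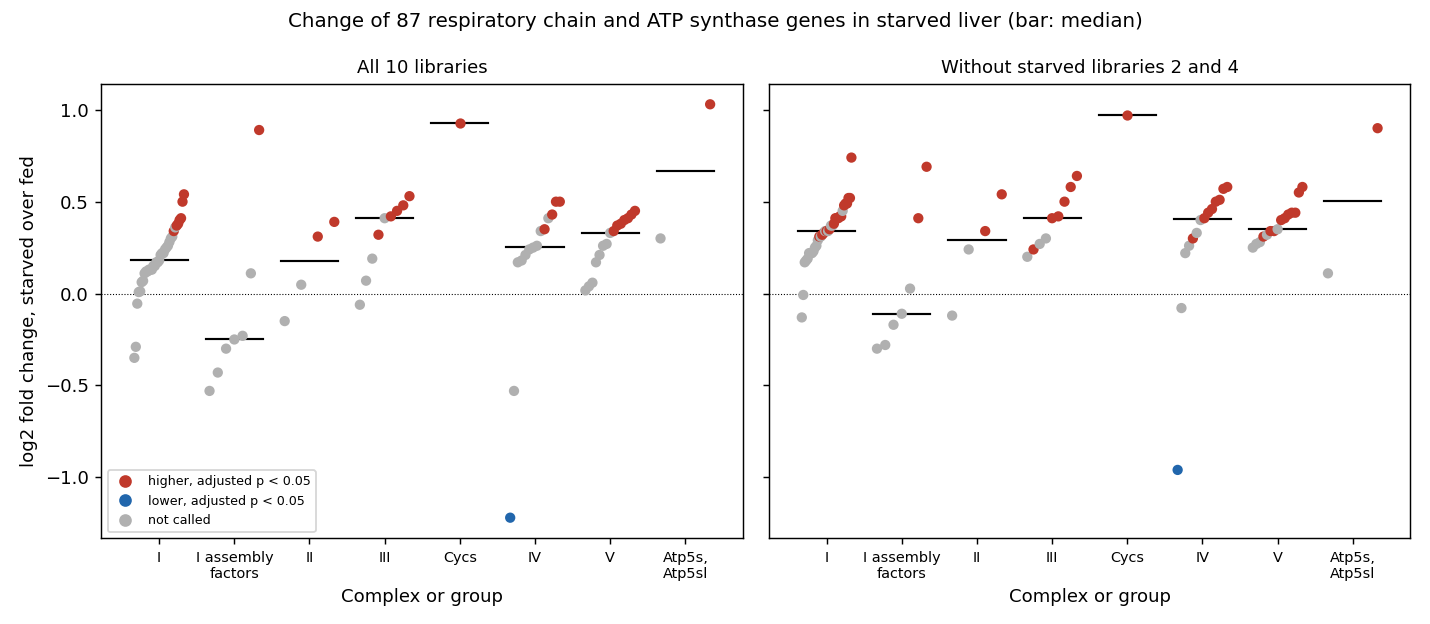
Log2 fold change (starved over fed, vertical axis) of the 87 tested genes by complex or group (horizontal axis), with TMM scaling, from all 10 libraries on the left and without starved libraries 2 and 4 on the right. Each point is a gene, red if called higher, blue if called lower, grey if not called at an adjusted p of 0.05, and the black bar is the group's median. On the left 28 points are red and 1 is blue, and on the right 47 are red and 1 is blue.

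The mobile carrier rose more than any tested subunit of complexes I to V. Cycs (chr6:50562563-50566538, minus strand, mm10) encodes cytochrome c, which shuttles electrons from complex III to complex IV and also triggers apoptosis when it leaves the mitochondrion. Its level was 222, 195, 221, 219 and 212 CPM in fed libraries 1 to 5 and 438, 353, 499, 452 and 302 CPM in starved libraries 1 to 5. All 5 starved libraries lay above every fed one, with library 5 the lowest. The log2 fold change was 0.93 ± 0.14 (SE; 95% interval 0.63 to 1.24; edgeR adjusted p = 0.000488), and it stayed between 0.85 and 1.03 with any single library left out. Its level also differed more among starved (SD 79.7 CPM) than among fed livers (SD 11.3 CPM).

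Promoter sequences were taken from RefSeq's table for GRCm38.p6 (the mm10 assembly) and found for 77 of the 94 genes. The 250 bases before the start of transcription are shown for 3 genes that rose and whose windows hold a match to a motif of a known regulator of respiratory genes. Letters run 5′ to 3′ on the gene's strand, and capitals mark the matches, to the NRF1 motif in Cycs and Ndufaf4 and to the ESRRA motif in Atp5g3.
Cycs (chr6:50566570-50566819, minus): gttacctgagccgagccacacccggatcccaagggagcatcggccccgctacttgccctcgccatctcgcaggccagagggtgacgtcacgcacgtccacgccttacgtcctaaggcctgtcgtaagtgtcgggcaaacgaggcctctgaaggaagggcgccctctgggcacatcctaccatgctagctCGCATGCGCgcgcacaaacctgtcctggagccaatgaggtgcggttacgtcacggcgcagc
Ndufaf4 (chr4:24897833-24898082, plus): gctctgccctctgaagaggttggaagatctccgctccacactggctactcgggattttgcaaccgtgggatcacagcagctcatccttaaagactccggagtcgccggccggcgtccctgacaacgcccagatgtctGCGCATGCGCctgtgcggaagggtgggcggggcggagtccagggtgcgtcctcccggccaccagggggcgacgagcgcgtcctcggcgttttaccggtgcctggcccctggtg
Atp5g3 (chr2:73911327-73911576, minus): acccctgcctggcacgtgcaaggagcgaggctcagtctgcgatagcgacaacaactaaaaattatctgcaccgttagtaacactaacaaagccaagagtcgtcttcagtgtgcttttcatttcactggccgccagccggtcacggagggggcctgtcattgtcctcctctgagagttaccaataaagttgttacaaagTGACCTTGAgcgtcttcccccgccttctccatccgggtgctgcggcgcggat

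Motifs were searched on both strands from 250 bases before to 50 bases after the start, and a gene was counted once however many matches it had, overlapping ones included. The NRF1 motif GCGCANGCG, which can match both strands at nearly the same place, was found in 29.9% of the 77 promoters, beside 7.03% of all 27025 promoters in the table and 14.9% of those of tested genes. The motif CCGGAAG of GABPA and other ETS factors was in 22.1%, beside 9.93% and 19.5%. The YY1 motif AAGATGGCG was in 10.4%, beside 1.64% and 3.51%. The ESRRA motif TCAAGGTCA was in 2 of the 77 promoters (2.6%, beside 0.466% and 0.295%), those of Atp5g3 and Sdhd, which both rose. The NRF1 motif was in 8 of the 23 promoters of genes that rose (34.8%) and in 14 of the 49 of tested genes that were not called (28.6%). For the ETS motif these counts were 4 of 23 and 13 of 49, and for YY1 1 of 23 and 7 of 49. A match describes letters in the window and is not evidence of binding.

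In complex I, the NADH dehydrogenase, 7 of 35 tested subunits rose and none fell, a share (20%) near that of all genes (18.6%), with a median log2 fold change of 0.18. Among those that rose were Ndufv1, Ndufv2 and Ndufs7, core subunits that carry the flavin and iron-sulfur clusters, and the accessory subunits Ndufa12, Ndufa8 and Ndufc2. Without starved libraries 2 and 4, 17 of the 35 rose (48.6%, beside 20.2% of all genes).

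Ndufv1 binds NADH and the flavin that first accepts its electrons. It was at 180.5, 189, 188, 206 and 186 CPM in fed and 275, 288, 264, 265 and 246 CPM in starved libraries 1 to 5. The groups did not overlap, and starved libraries 2 and 4 lay among the others. Its log2 fold change was 0.50 ± 0.09 (95% interval 0.30 to 0.69; edgeR adjusted p = 0.00147).

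Ndufs7 carries the last iron-sulfur cluster before coenzyme Q. It was at 60.7, 58.9, 61.5, 67.3 and 60.1 CPM in fed and 101, 59, 106, 86.5 and 97.1 CPM in starved libraries 1 to 5. Starved library 2 lay within the fed range while the other 4 lay above it. Ndufs7 rose by 0.54 ± 0.14 (edgeR adjusted p = 0.0115), and by 0.74 without starved libraries 2 and 4.

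Ndufv2, the partner of Ndufv1, rose by 0.40 ± 0.13, from 156 ± 11.8 to 206 ± 35.9 CPM (edgeR adjusted p = 0.026). Ndufs1, the largest subunit of complex I (0.22 ± 0.11, edgeR adjusted p = 0.12), and Ndufs3 (0.25 ± 0.094, edgeR adjusted p = 0.0502) were not called, although all 5 starved libraries of Ndufs3 lay above the fed ones. Ndufs8, which holds a pair of iron-sulfur clusters, had the lowest value of the complex. It was at 119, 93.3, 101, 97.8 and 101 CPM in fed and 98.6, 50.8, 96.4, 73.6 and 81.4 CPM in starved libraries 1 to 5, with starved library 2 far below the rest. Its log2 fold change of −0.35 ± 0.16 was not called (95% interval −0.71 to 0.0041; edgeR adjusted p = 0.107), and it was −0.13 without starved libraries 2 and 4.

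Among the accessory subunits, Ndufa12 rose from 61.4 ± 2.4 to 81.6 ± 10.3 CPM (0.41 ± 0.10, edgeR adjusted p = 0.00942), Ndufa8 by 0.37 ± 0.12 and Ndufc2 by 0.34 ± 0.10. Ndufb9, the most abundant subunit of the complex per kb of exon (435 CPM per kb in fed liver), had a log2 fold change of 0.36 ± 0.16 and was not called (edgeR adjusted p = 0.0869), but was called without starved libraries 2 and 4 (0.52, edgeR adjusted p = 0.0213). Of the calls in complex I, those of Ndufv2 and Ndufa8 were each lost in 6 of the 10 fits that left out 1 library: for both, without fed library 2, 3, 4 or 5 or starved library 1 or 3 (0.33 to 0.46 and 0.30 to 0.44 over the 10 fits). That of Ndufc2 was lost without fed library 2 or 3 (0.29 to 0.40). Ndufs5 was listed at 0 reads in every library, which allows up to 3 reads in each. Reads that aligned to more than 1 place, 38.6% to 48.4% of the tallied reads of a library, were left uncounted, and their part in this 0 was not tested.

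**Figure D2:**
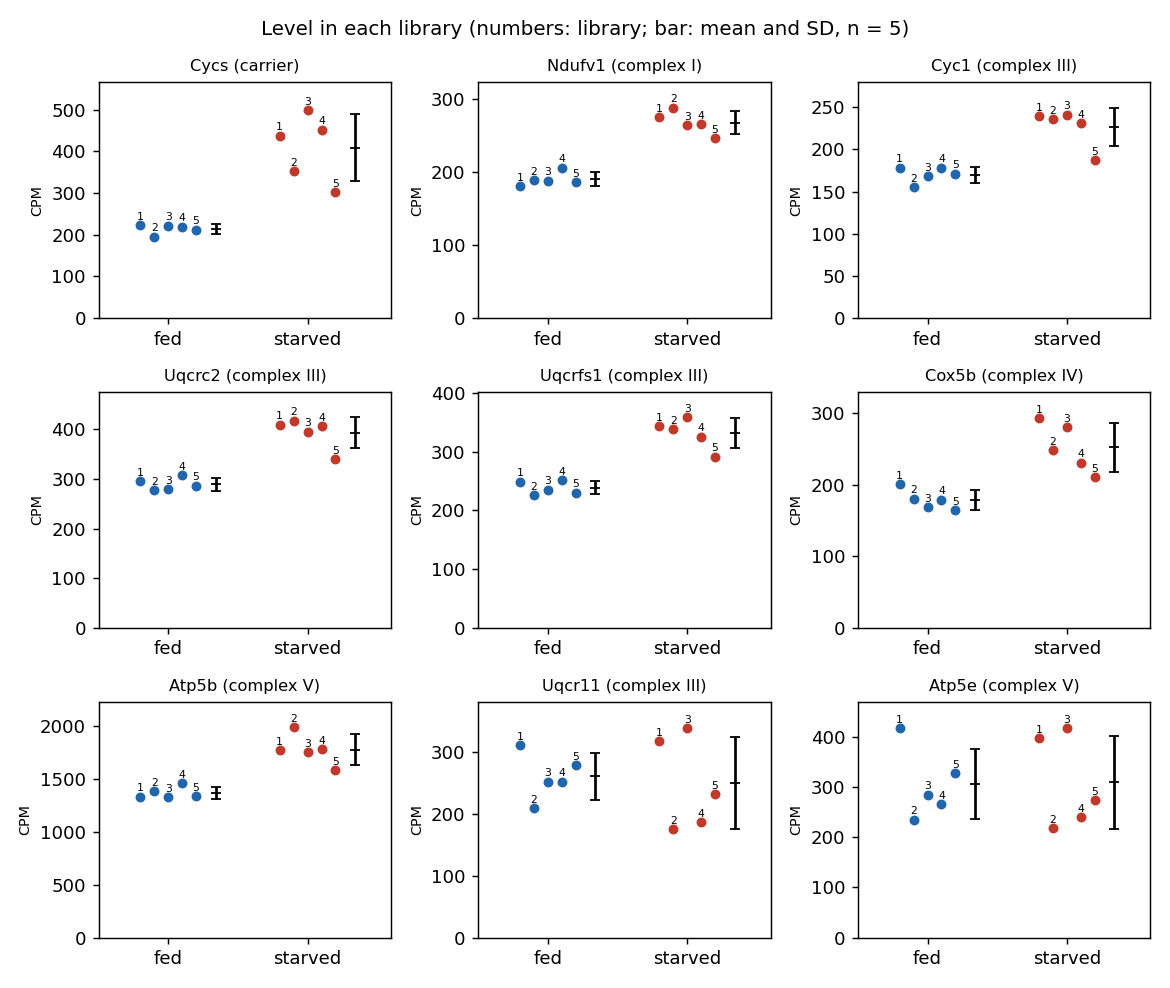
Level in CPM (vertical axis, from 0) of 9 genes in each fed (blue) and starved (red) library, with library numbers beside the points and the mean and SD of 5 libraries as a black bar. In Cycs, Ndufv1, Cyc1, Uqcrc2, Uqcrfs1, Cox5b and Atp5b the groups do not overlap, while in Uqcr11 and Atp5e starved libraries 2 and 4 lie near or below the lowest fed library and starved libraries 1 and 3 near or above the highest.

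The 7 Ndufaf genes encode assembly factors, which help build complex I but are not part of the finished enzyme. Ndufaf4 (chr4:24898083-24905001, plus strand) alone rose, so that the share called higher (14.3%) was near that of all genes (18.6%). It was at 61.1, 50.3, 49.1, 62.4 and 61.1 CPM in fed and 90.2, 114, 99.1, 139 and 81.8 CPM in starved libraries 1 to 5, with no overlap. Its log2 fold change was 0.89 ± 0.15 (95% interval 0.56 to 1.21; edgeR adjusted p = 0.000973), and 0.69 without starved libraries 2 and 4, which had its highest levels.

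Of the other 6, Ndufaf3 had a value of 0.11 and 5 had values from −0.53 to −0.23. The median of the 7 was −0.25, and none of the other 6 was called with all 10 libraries. Without starved libraries 2 and 4, 2 of the 7 rose (28.6%, beside 20.2% of all genes), and the median was −0.11. These were Ndufaf4 and Ndufaf3 (0.41, edgeR adjusted p = 0.0362). Ndufaf5, which modifies a core subunit, went from 9.06 ± 1.66 to 6.27 ± 1.93 CPM (−0.53 ± 0.23, edgeR adjusted p = 0.0846). It was called lower with length and GC trends removed (−0.48, edgeR adjusted p = 0.0323) and without starved library 1 (−0.64), and it was −0.30 without starved libraries 2 and 4. Ndufaf1, an early assembly factor, was at 31.2, 35.7, 33, 35.8 and 31.3 CPM in fed and 31.6, 13.7, 27.3, 22.2 and 28.7 CPM in starved libraries 1 to 5, with starved libraries 2 and 4 the lowest. Its value of −0.43 ± 0.19 (edgeR adjusted p = 0.083) was −0.17 without these 2 libraries, but with library totals alone it was called (−0.58, edgeR adjusted p = 0.0428), as it was with length and GC trends removed (−0.40) and without starved library 1 (−0.54).

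Complex II is succinate dehydrogenase, which is also an enzyme of the citric acid cycle. Of its 4 genes, 2 rose (50%, beside 18.6% of all genes), the iron-sulfur subunit Sdhb and the membrane anchor Sdhd. Without starved libraries 2 and 4, the same 2 rose (50%, beside 20.2%). Sdhd was at 382, 296, 342, 343 and 360.0 CPM in fed and 537, 366, 539.6, 418 and 406 CPM in starved libraries 1 to 5. Only starved library 2 lay within the fed range, and Sdhd rose by 0.39 ± 0.13 (edgeR adjusted p = 0.0361). Sdhb went from 213 ± 27.4 to 265 ± 20.3 CPM, with fed library 4 (249 CPM) above starved libraries 4 and 5 (244 CPM each), and rose by 0.31 ± 0.11 (edgeR adjusted p = 0.0467).

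The catalytic flavoprotein Sdha was not called, at 205, 239, 205, 236 and 254 CPM in fed and 215, 178, 189, 224 and 217 CPM in starved libraries 1 to 5 (−0.15 ± 0.11, 95% interval −0.39 to 0.081). Its groups overlapped, and no starved library exceeded the highest fed one. The other anchor, Sdhc, was not called either (0.048 ± 0.14, 95% interval −0.25 to 0.34), and its sign turned with library totals alone. Both calls of complex II lay near the threshold, and both were lost with no filter on low counts. That of Sdhb was lost without fed library 1, 2, 3 or 5 or starved library 1, 2 or 3 (0.25 to 0.37 over the 10 fits) and that of Sdhd without fed library 2, 3, 4 or 5 or starved library 1 or 3 (0.33 to 0.48).

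Complex III, the cytochrome bc1 complex, passes electrons from coenzyme Q to cytochrome c. Of its 9 genes 5 rose (55.6%, beside 18.6% of all genes) and none fell, with a median log2 fold change of 0.41. The 5 were its catalytic subunits Cyc1 and Uqcrfs1, the large core proteins Uqcrc1 and Uqcrc2, and the small Uqcr10.

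Uqcrfs1, the Rieske iron-sulfur protein, was at 249, 226, 235, 251 and 229.9 CPM in fed and 343, 338, 358, 325 and 291 CPM in starved libraries 1 to 5. No starved library fell within the fed range, and the log2 fold change was 0.48 ± 0.094 (95% interval 0.27 to 0.68; edgeR adjusted p = 0.00255). Cyc1, cytochrome c1, was at 178, 155, 168, 178 and 171 CPM in fed and 239, 236, 241, 231 and 187 CPM in starved libraries 1 to 5. Its groups did not overlap either, though starved library 5 was well below the other 4, and it rose by 0.42 ± 0.10 (edgeR adjusted p = 0.0075).

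Uqcrc2 rose from 289 ± 12.6 to 393 ± 30.8 CPM (0.45 ± 0.10, edgeR adjusted p = 0.00397) and Uqcrc1 from 259 ± 11.3 to 323 ± 34.8 CPM (0.32 ± 0.10, edgeR adjusted p = 0.0275), both without overlap. Uqcrc2 overlaps Pdzd9 on the opposite strand, and the strand setting used for counting is not given in the sources used here. Uqcr10, one of the smallest subunits, was at 191, 112, 144, 148 and 175 CPM in fed and 259.6, 193, 276, 208 and 175 CPM in starved libraries 1 to 5. It had the largest value of the complex (0.53 ± 0.17, edgeR adjusted p = 0.0271), with starved library 5 inside the fed range.

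The most abundant complex III gene per kb in fed liver, Uqcr11 (585 CPM per kb), did not follow. It was at 311, 209.5, 252, 252 and 279 CPM in fed and 317, 175, 338, 187 and 232 CPM in starved libraries 1 to 5. Starved libraries 1 and 3 were the highest of the 10 and starved libraries 2 and 4 the lowest, and the value of −0.061 ± 0.19 (95% interval −0.48 to 0.36) became 0.20 without the latter. The call of Uqcr10 was lost without fed library 2, 3 or 4 or starved library 1 or 3 (0.43 to 0.62 over the 10 fits), and that of Uqcrc1 without fed library 3 or 5 (0.27 to 0.36).

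Complex IV, cytochrome c oxidase, takes its catalytic core from mitochondrial DNA, and the nuclear subunits surround it, several of them as tissue-specific isoforms. Of 14 tested genes 4 rose (28.6%, beside 18.6% of all genes), Cox4i1, Cox5b, Cox7a2l and Cox8a, and 1 fell (7.14%, beside 20%), Cox7a1. The median was 0.25. Without starved libraries 2 and 4, 8 rose (57.1%, beside 20.2%) and 1 fell (7.14%, beside 20.7%).

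Cox5b, the zinc-binding subunit, was at 201, 180.4, 169, 179 and 164 CPM in fed and 293, 248, 280.1, 231 and 210.2 CPM in starved libraries 1 to 5. The lowest starved library was just above the highest fed one, and the log2 fold change was 0.50 ± 0.12 (edgeR adjusted p = 0.00586). Cox4i1, the common form of the regulatory subunit that binds ATP, was at 496, 350.1, 405, 408 and 463 CPM in fed and 647, 533, 616, 539.8 and 516 CPM in starved libraries 1 to 5. Again the groups did not overlap, and Cox4i1 rose by 0.43 ± 0.12 (edgeR adjusted p = 0.0174). Cox8a rose by 0.35 ± 0.11 (edgeR adjusted p = 0.0317), a call lost without fed library 2, 3, 4 or 5 or starved library 1 or 3 (0.29 to 0.41 over the 10 fits).

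Cox7a2l is a Cox7a relative known for linking complexes III and IV into supercomplexes. It was at 195, 146, 143, 163 and 166 CPM in fed and 248, 249.8, 237, 217 and 203 CPM in starved libraries 1 to 5, without overlap. It rose by 0.50 ± 0.11 (edgeR adjusted p = 0.00506), whereas Cox7a2, the isoform built into liver complex IV, was not called (0.18 ± 0.13, edgeR adjusted p = 0.299).

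Cox7a1 (chr7:30184144-30186078, plus strand), the isoform of heart and muscle, was the only one of the 87 genes that fell. Its level was low, at 2.25, 1.56, 2.39, 2.93 and 2.42 CPM in fed and 0.973, 0.321, 1.92, 1.08 and 0.58 CPM in starved libraries 1 to 5, from 431 reads in all. Starved library 3 lay within the fed range and the other 4 below it. The log2 fold change was −1.22 ± 0.35 (edgeR adjusted p = 0.018), was called in each of the 10 fits that left out 1 library, and was −0.96 without starved libraries 2 and 4.

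Ndufa4, the most abundant complex IV gene per kb (649 CPM per kb in fed and 772 in starved liver), was not called (0.25 ± 0.16, edgeR adjusted p = 0.244). Cox6b1 (0.34 ± 0.13, edgeR adjusted p = 0.0518), Cox7b (0.41 ± 0.18, edgeR adjusted p = 0.0861) and Cox6a1 (0.24 ± 0.10, edgeR adjusted p = 0.0786) missed the threshold with all 10 libraries. All 4 of these genes were called without starved libraries 2 and 4, at 0.44, 0.46, 0.58 and 0.30.

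The isoforms that belong to other tissues were near 0. Cox7b2 and Cox8c had no read in any library, and Cox6a2, Cox4i2 and Cox8b had 7, 14 and 38 reads in the 10 libraries together. Cox8b was at 0.808 CPM in fed library 1 and 0.272 CPM in starved library 1, and at most 0.0994 CPM elsewhere. The brown fat markers Ucp1 and Cidea were also highest in these libraries, and a part of brown fat RNA in them was not tested. Ndufa4l2, a relative of Ndufa4, reached at most 1.05 CPM in a library and was not called (−0.53 ± 0.43).

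Cox6b2, the testis form of Cox6b1, was left out by the filter on low counts with 36 reads in all. It was at 0.105, 0, 0.0736, 0.0344 and 0.0403 CPM in fed and 0.428, 0.214, 0.148, 0.253 and 0.232 CPM in starved libraries 1 to 5, without overlap, and with no filter it was called (2.38, edgeR adjusted p = 0.0101).

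Complex V, ATP synthase, consists of a catalytic head, a stalk and a proton-driven ring in the membrane. All 15 of its genes had a positive value with TMM scaling, against 12 with library totals alone and 13 by limma-voom, and 7 of 15 rose (46.7%, beside 18.6% of all genes) with a median of 0.33. Without starved libraries 2 and 4, 10 rose (66.7%, beside 20.2%). The genes that rose encode the catalytic subunits Atp5a1 and Atp5b, the central stalk subunit Atp5d, the peripheral stalk subunits Atp5f1, Atp5h and Atp5o, and the ring subunit Atp5g3.

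Atp5b, the β subunit that makes ATP, was the gene with the highest CPM of all 94. It was at 1330.4, 1382, 1325, 1455 and 1337 CPM in fed and 1770.4, 1987, 1751, 1780.2 and 1577 CPM in starved libraries 1 to 5. The lowest starved library stood above the highest fed one, and the log2 fold change was 0.38 ± 0.11 (95% interval 0.15 to 0.61; edgeR adjusted p = 0.0154). Atp5a1, the α subunit, was at 915, 1068, 964, 1114 and 996 CPM in fed and 1274, 1626, 1294, 1365 and 1147 CPM in starved libraries 1 to 5, with no overlap. It rose by 0.41 ± 0.12 (edgeR adjusted p = 0.0206), and as for Atp5b its highest level was in starved library 2.

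Atp5d varied little within a group, went from 117 ± 3.53 to 148 ± 5.87 CPM, and rose by 0.34 ± 0.081 (edgeR adjusted p = 0.00637). In the peripheral stalk, Atp5h rose from 258 ± 22.5 to 352 ± 63.2 CPM (0.45 ± 0.13, edgeR adjusted p = 0.0199), Atp5o by 0.43 ± 0.13 and Atp5f1 by 0.37 ± 0.12. Atp5f1 overlaps Wdr77 on the opposite strand. The fourth stalk gene, Atp5j, was not called (0.21 ± 0.16), and it overlaps Gabpa, a regulator of respiratory genes, on the opposite strand.

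The small ε subunit Atp5e was the most abundant of the 94 genes per kb in fed liver (727 CPM per kb, with Atp5b at 713), while in starved liver Atp5b was (925, with Atp5e at 736). Atp5e was at 417, 235, 285, 266 and 328 CPM in fed and 398, 218, 417, 240.1 and 274 CPM in starved libraries 1 to 5. The groups covered the same range, with a log2 fold change of 0.017 ± 0.21 (95% interval −0.45 to 0.48) whose sign turned in several alternatives, library totals alone among them.

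The call of Atp5f1 was lost without fed library 2, 3 or 5 or starved library 1 or 3 (0.32 to 0.43 over the 10 fits) and that of Atp5o without fed library 2, 3 or 4 or starved library 3 (0.36 to 0.50). Those of Atp5a1 (0.39) and Atp5h (0.42) were lost without fed library 3.

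The ring subunit c is encoded by 3 genes, Atp5g1, Atp5g2 and Atp5g3, that give the same mature protein and differ in the leader peptide that directs it into mitochondria. Atp5g3 was at 272, 250.0, 253, 269 and 277 CPM in fed and 391, 353, 371, 349 and 279 CPM in starved libraries 1 to 5. Starved library 5 was only just above the highest fed library, and Atp5g3 rose by 0.40 ± 0.11 (edgeR adjusted p = 0.0132). Atp5g1 (178 ± 10.5 and 200.4 ± 38.5 CPM; 0.17 ± 0.13, edgeR adjusted p = 0.313) and Atp5g2 (116 ± 12.4 and 139 ± 12.5 CPM; 0.27 ± 0.10, edgeR adjusted p = 0.0618) were not called. Per kb of exon, Atp5g3 was the most abundant of the 3 in fed liver (365 CPM per kb), then Atp5g2 (158) and Atp5g1 (37.2). The place of Atp5g1 rests on its exon length merged over transcripts, 4.778 kb against 0.731 kb for Atp5g2 and 0.724 kb for Atp5g3. In CPM, Atp5g1 lay above Atp5g2.

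Atp5s was low, at 4.88, 4.67, 4.6, 4.82 and 3.99 CPM in fed and 9.38, 10.5, 9.2, 10.9 and 6.72 CPM in starved libraries 1 to 5. The groups did not overlap, and it had the largest rise of the 87 genes (1.03 ± 0.15, 95% interval 0.71 to 1.35; edgeR adjusted p = 0.000413). Atp5sl, a gene of similar name, was not called (0.30 ± 0.16, edgeR adjusted p = 0.147).

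Pairs of related genes were compared within each library as a log2 ratio with 0.5 CPM added, which removes differences of scaling between libraries. Of 12 pairs, 5 had a mean of at least 1 CPM in at least 1 group for both genes, and p-values of a two-sided exact permutation test were adjusted over the 5. The 5 include Cox7a1 over Cox7a2, so the adjusted p-values of the other pairs depend on that pair too. Cox7a2l over Cox7a2 went from −0.36 ± 0.11 in fed to −0.024 ± 0.18 in starved liver (SD, n = 5), a difference of 0.33 with no overlap (exact permutation p = 0.00794, the smallest that 5 against 5 can give; adjusted p = 0.0198). Cox7a1 met the minimum only through its fed level (mean 2.31 CPM, and under 1 CPM in starved liver), so its ratio is given without its p-value. Cox7a1 over Cox7a2 was −6.23 ± 0.25 in fed and −7.41 ± 0.44 in starved liver. The difference of −1.18 became −1.50 with 0.1 CPM added, and the lowest starved level of Cox7a1 (0.321 CPM) is itself below the 0.5 CPM.

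Within the subunit c genes, the difference in Atp5g1 over Atp5g3 was −0.24 (exact permutation p = 0.0317, adjusted p = 0.0529) and became −0.10 without starved libraries 2 and 4. Those in Atp5g1 over Atp5g2 (exact permutation p = 0.492, adjusted p = 0.492) and Atp5g2 over Atp5g3 (exact permutation p = 0.23, adjusted p = 0.288) were −0.12 each and did not exceed the spread between libraries.

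**Figure D3:**
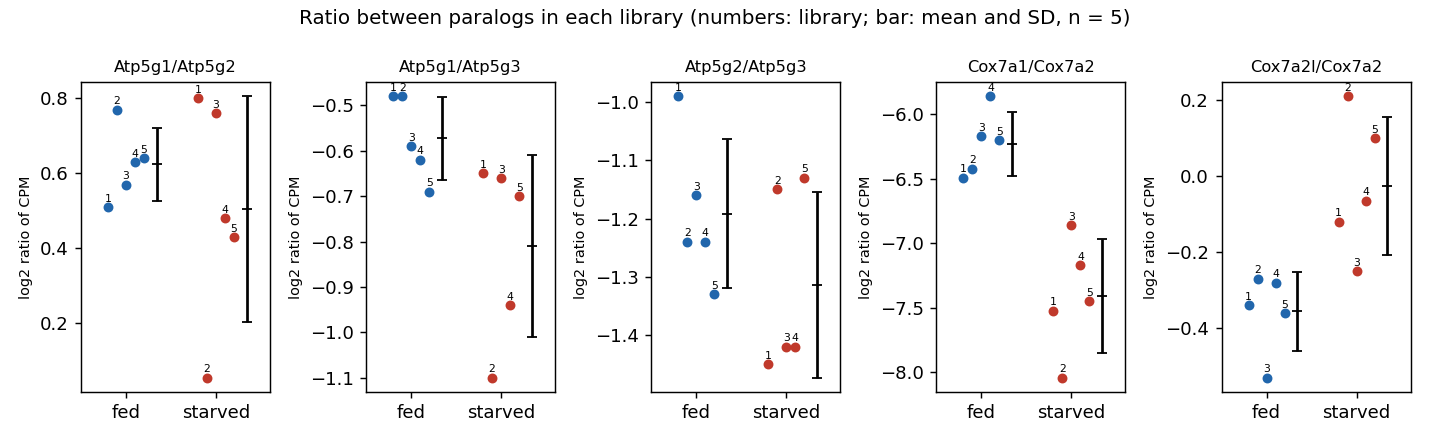
Log2 ratio of CPM (vertical axis, 0.5 CPM added to each gene) between the genes of 5 pairs in each fed (blue) and starved (red) library, with library numbers beside the points and the mean and SD of 5 libraries as a black bar. Cox7a1 over Cox7a2 is lower and Cox7a2l over Cox7a2 higher in every starved library than in any fed one, and the other 3 pairs overlap.

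Many of these genes had the same library highest or lowest within a group. The same counts over all genes are not given here, so this order cannot be called particular to these genes. In the fed group, library 1 was the highest for 64 of the 87 genes and library 2 the lowest for 62. In the starved group, library 1 was the highest for 40 and library 3 for 31, and library 2 was the lowest for 44 and library 5 for 38. Relative to the fed mean, the median log2 level of the 87 genes was 0.46 and 0.45 in starved libraries 1 and 3, 0.13 in library 4, 0.053 in library 5 and 0.0072 in library 2. For 27 of the 87 genes starved libraries 2 and 4 were the lowest pair of the starved group.

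The genes were also counted by the size of the encoded protein. Of the 44 genes for proteins of at most 150 amino acids 8 rose (18.2%), a share near the 18.6% of all genes, and of the 43 for longer proteins 20 rose (46.5%), with medians of 0.21 and 0.31. This boundary was chosen after the values were seen, so the difference was not tested. In 5 of the 44 (11.4%) and 15 of the 43 genes (34.9%) the starved libraries lay wholly above the fed ones, beside 13.2% of all genes. Fed library 1 was the highest of its group for 41 of the 44 short and 23 of the 43 long proteins. Fed library 2 was the lowest for 38 and 24 of them. The median log2 level of starved library 2 over the fed mean was −0.088 for the short and 0.11 for the long proteins, and without starved libraries 2 and 4, 19 of 44 (43.2%) and 28 of 43 (65.1%) rose, beside 20.2% of all genes, with medians of 0.34 for both. Genes for short proteins also have short messages (median 0.626 against 1.49 kb of exon), so message length and protein size cannot be told apart here.

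**Figure D4:**
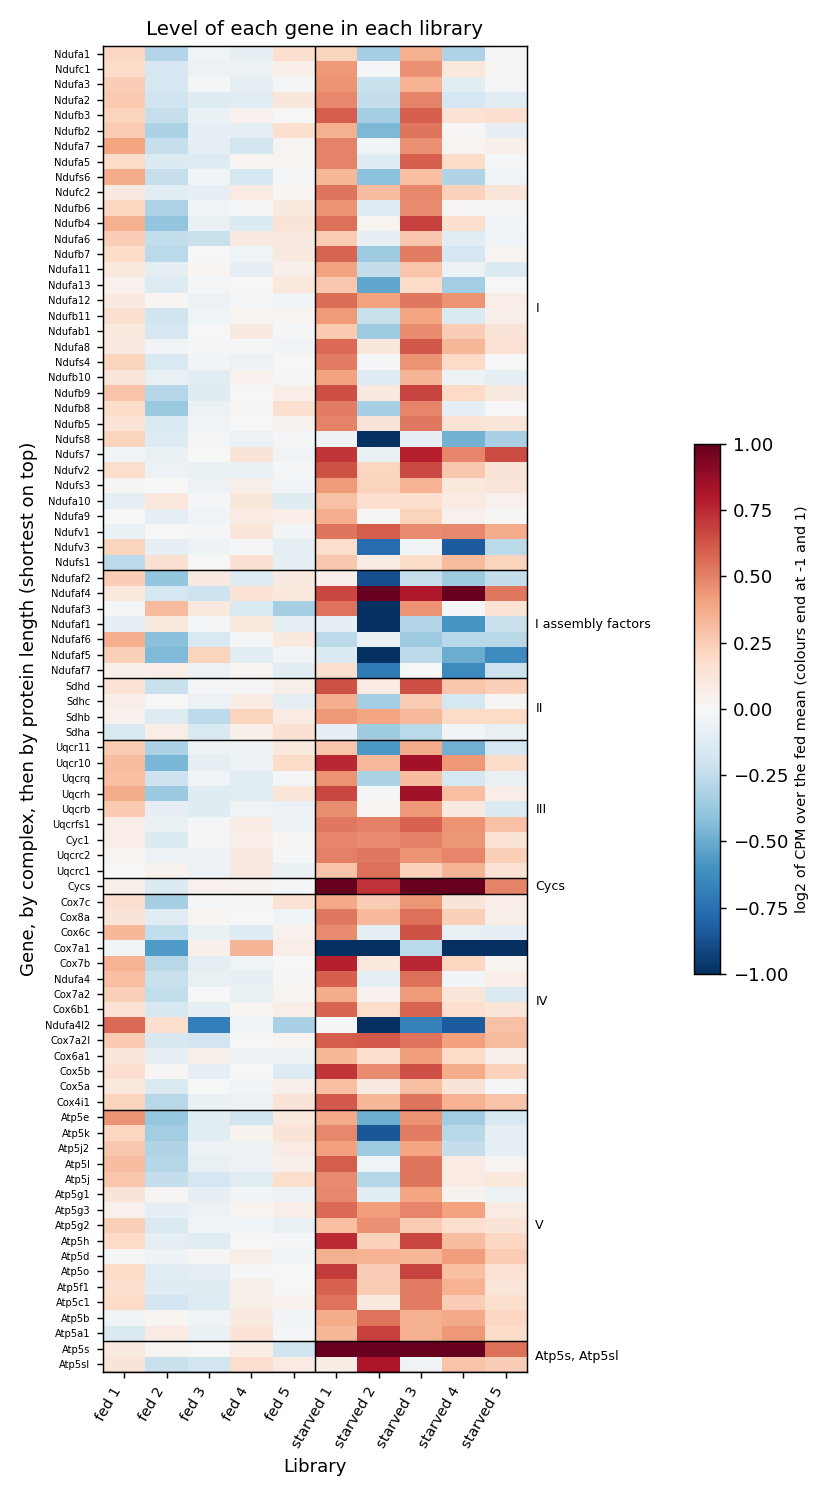
Level of 86 of the 87 tested genes (rows, by complex and then by protein length, shortest on top) in each library (columns), as the log2 of its CPM over the fed mean, with red above, blue below and colours ending at −1 and 1. Starved libraries 1 and 3 are red in most rows, starved library 2 is blue in many of the short-protein rows of complexes I and V and red in rows such as Ndufv1 and Atp5b, and fed library 2 is pale blue in most rows.

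Regulators of respiratory genes were measured alongside. Of 15 tested, 7 rose (46.7%, beside 18.6% of all genes) and none fell, with a median of 0.64. Without starved libraries 2 and 4, 6 rose (40%, beside 20.2%) and the median was 0.29. Of the 7, 4 were called in both fits (Ppargc1a, Esrra, Tfb1m and Tfb2m), Pprc1, Gabpb1 and Polrmt lost their calls, and Tfam and Tefm were called without the 2 libraries but not with them. Ppargc1a, the coactivator that drives mitochondrial biogenesis, was at 6.04, 6, 7.72, 6.92 and 6.12 CPM in fed and 34.5, 22.8, 22.9, 36.5 and 32 CPM in starved libraries 1 to 5. Each starved library was far above the fed range (log2 fold change 2.18 ± 0.16, edgeR adjusted p = 1.05e-05).

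Esrra, the nuclear receptor ERRα and a partner of Ppargc1a, was at 35.2, 27.6, 29.5, 38 and 33.8 CPM in fed and 45.5, 103, 48.6, 75 and 43.1 CPM in starved libraries 1 to 5. It rose by 0.94 ± 0.23 (edgeR adjusted p = 0.00799), and by 0.50 without starved libraries 2 and 4, its highest. Pprc1, a relative of Ppargc1a, rose by 0.92 ± 0.30 (edgeR adjusted p = 0.0316), a call lost without fed library 2 (0.92), 3 (0.91), 4 (0.88) or 5 (0.90), without starved library 4 (0.95) and without starved libraries 2 and 4 together (0.37).

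Of 37 tested assembly factors with other names, 7 rose, a share (18.9%) near that of all genes (18.6%), and 2 fell (5.41%, beside 20%), with a median of 0.06. Leaving out starved libraries 2 and 4 gave 15 (40.5%, beside 20.2%) and 1 (2.7%, beside 20.7%). Coa6, which brings copper to complex IV, rose by 0.96 ± 0.24, and Ttc19 (0.72 ± 0.14) and Lyrm7 (0.60 ± 0.17), both of which serve the Rieske protein of complex III, rose as well. Acad9, an acyl-CoA dehydrogenase that helps build complex I, fell from 71.2 ± 5.37 to 43.7 ± 15.1 CPM (−0.71 ± 0.22), a call lost without fed library 2 (−0.67) or starved library 4 (−0.60). Sco1, another copper chaperone of complex IV, fell by 0.38 on the log2 scale (−0.38 ± 0.13), a call lost without fed library 1 (−0.37), 2 (−0.34) or 3 (−0.38), without starved library 4 (−0.34) and without starved libraries 2 and 4 together (−0.22).

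Of 13 coenzyme Q genes, 2 rose and 2 fell (15.4% each), near the shares of all genes (18.6% and 20%). Without starved libraries 2 and 4, 4 rose (30.8%, beside 20.2%) and 3 fell (23.1%, beside 20.7%). Coq7, a hydroxylase of the pathway, rose from 11.8 ± 1.02 to 23.5 ± 6.3 CPM and Pdss1, which builds the side chain, by 0.88 ± 0.20. In contrast, Pdss2, the partner of Pdss1, fell from 9.37 ± 1.03 to 5.16 ± 1.62 CPM (−0.86 ± 0.22) and Coq10b, a coenzyme Q binding protein, by 0.82 on the log2 scale (−0.82 ± 0.12).

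Of 17 tested genes for other electron entry and ATP handling, 4 rose and 4 fell (23.5% each), near the shares of all genes (18.6% and 20%). Without starved libraries 2 and 4, 8 rose (47.1%, beside 20.2%) and 3 fell (17.6%, beside 20.7%). Slc25a3, which brings in the phosphate for ATP synthesis, was at 221, 214, 211, 225 and 211 CPM in fed and 342, 374, 334, 372 and 278 CPM in starved libraries 1 to 5. Its groups did not overlap (0.65 ± 0.10, edgeR adjusted p = 0.000749). Etfdh, which feeds electrons from fatty acid oxidation into coenzyme Q, rose from 259 ± 37.2 to 396 ± 76.8 CPM (0.62 ± 0.16, edgeR adjusted p = 0.00946), and Vdac2, a channel of the outer membrane, rose by 0.46 ± 0.11.

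Atpif1 is the inhibitor that stops ATP synthase from running backwards. It was at 26.8, 16.9, 19.9, 19.8 and 22.1 CPM in fed and 13.2, 8.12, 10.2, 5.38 and 13.5 CPM in starved libraries 1 to 5. No starved library reached the fed range, and Atpif1 fell (−1.07 ± 0.23, edgeR adjusted p = 0.00415; −0.76 without starved libraries 2 and 4). Sqrdl, which passes electrons from sulfide to coenzyme Q, fell from 274 ± 20.4 to 153 ± 46.8 CPM (−0.84 ± 0.20). Gpd2, the mitochondrial glycerol 3-phosphate dehydrogenase, fell from 40 ± 10.9 to 27.3 ± 3.97 CPM (−0.55 ± 0.18), a call lost without fed library 2 (−0.38) or 4 (−0.56), without starved library 4 (−0.45) and without starved libraries 2 and 4 together (−0.39).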

How the data were processed

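The deposited files hold raw whole-number read counts per gene symbol, 1 file per library, not normalised. Build mm10, HTSeq, Bowtie2 2.0.0, TopHat2 2.0.0, edgeR 3.6.4 and CASAVA 1.8.2 are named in the submitters' processing notes. The kit kept strand, per the labels' protocols, but the sources used here do not give the annotation or the strand setting used to count. Of the 94 genes, 13 overlap a coding gene on the opposite strand, 2 of them among the 28 that rose. Rows that name no gene stayed out of library sizes and tests: 38.6% to 48.4% of tallied reads aligned to more than 1 place and 16% to 24.7% lay in no gene.

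Counts were filtered with filterByExpr, scaled by TMM and tested over all 12796 kept genes with edgeR 4.0.16 in R 4.3.3 (quasi-likelihood test, Benjamini-Hochberg adjustment, called at adjusted p under 0.05; the SE is the size of the log2 fold change over the square root of F). The fit was tested on simulated data. The sources do not say outright that each library is 1 mouse, so p-values measure the spread between these libraries, which may be technical. No pair of libraries of a group agreed within sampling noise (chi-square per degree of freedom of at least 11.2). Ratios of paralogs were tested by exact permutation in scipy 1.17.1.

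Coordinates and exon lengths are from GENCODE's annotation of GRCm38, counted from 1. Of the 23420 gene rows 98.4% matched it, and all 94 described here did. The genes and lists were chosen with earlier results of these data known. Named genes are the core and catalytic subunits, the paralog pairs, and per complex up to 3 called members in each direction and the most abundant per kb. Up to 3 called genes in each direction are named from each other list. A gene that these rules select is not reported here. Further members were named after their values were seen: the remaining genes that rose (Atp5d, Atp5f1, Atp5s, Ndufa8, Ndufc2), and Ndufaf3, Ndufaf5, Atp5j, Atp5sl and Ndufs5. Alternatives were DESeq2 1.42.0 size factors and Wald test, library totals alone, limma-voom (3.58.1), other filters, a replicate block, removal of length and GC trends, and leaving out libraries.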

Additional observations from a re-analysis of the deposited data

Results flagged for a closer look

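In 4 of 80 groups of 5 libraries examined, from the named genes, 1 library lay far from the other 4 for its group's range (Dixon's criterion, 0.71 for 5 libraries), and chance flags about 1 group in 20. Cyc1 was at 187 CPM in starved library 5 against 231 to 241 CPM in the other starved libraries. Fed library 1 was high for 3 genes: Ndufv2 at 176 CPM (149 to 155 CPM in the other fed libraries), Ndufs8 at 119 CPM (93.3 to 101 CPM) and Atp5g2 at 137 CPM (105 to 113 CPM). The same fed library was the highest for 64 of the 87 genes.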

How the results depend on the processing

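Against 28 genes higher and 1 lower, the counts were 32 and 1 with DESeq2 size factors, 35 and 1 with the DESeq2 Wald test, 28 and 1 with limma-voom, 26 and 2 with no filter, 27 and 1 with 1 CPM in 5 libraries, 5 and 3 with library totals alone, 47 and 1 without starved libraries 2 and 4, and 47 and 3 with length and GC trends removed. With any 1 library left out, 16 to 37 genes were higher and 1 to 3 lower (3 without starved library 1: Cox7a1, Ndufaf1 and Ndufaf5), and 16 of the 28 calls were kept in all 10 such fits. Besides Cox7a1, the genes called lower were Ndufaf1 and Ndufaf6 with library totals alone, and Ndufaf1 and Ndufaf5 with length and GC trends removed. The second gene called lower with no filter was Cox6a2, with 7 reads in all, each of them in fed libraries. The cause of the other changes was not tested. With the replicate number as a block, 26 genes were higher and 2 lower, Sdhb and Uqcrc1 losing their calls and Ndufaf5 gaining one as lower (−0.57, edgeR adjusted p = 0.0213). Same-numbered libraries did not deviate together (correlations of deviations from the group means −0.05 to 0.2), and 1 of 5 fed libraries correlated best with its own number, so the numbers were not taken as pairs. A sign-flip test of same-numbered differences between paralogs cannot go below an exact p of 0.0625. The ratios of Cox7a2l to Cox7a2 and of Atp5g1 to Atp5g3 both reached that floor.

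Signs were followed only for the genes named by rule, and among these they turned for genes near 0 that no fit called. Signs of further members turned too: 75 of the 87 were positive as reported and 58 with library totals alone. Sdhc (0.048) was −0.10 with library totals alone and −0.04 to 0.15 with 1 library left out. Uqcr11 (−0.061) was 0.20 without starved libraries 2 and 4 and −0.19 to 0.059 with 1 library left out. Atp5e (0.017) was −0.14 with library totals alone, −0.0071 by limma-voom, −0.0061 with the replicate block, −0.014 with length and GC trends removed and −0.11 to 0.15 with 1 library left out. The ratio of Atp5g1 to Atp5g2 (−0.12) was 0.043 without starved libraries 2 and 4. Atp5e had 76758 reads in all and an interval of −0.45 to 0.48, so changes smaller than that could not be told from 0. Depth limits the rare isoforms, such as Cox6b2 with 36 reads and Cox7a1 with 431.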
